A study of Oryza sativa with 12 samples.

Results

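QJ10 and LJ31, a pair of rice varieties called QJ and LJ in the column headers, were compared in unstressed leaves in 6 libraries, 3 of each variety, from a study of 12 libraries in 4 groups. The comparison covers all 7844 genes in the authors' deposited table for this pair of groups, out of 13674 genes in the 4 deposited tables together. Both control groups were leaves of Oryza sativa that carry the treatment label CK. The other 6 libraries were leaves of the same varieties exposed to bicarbonate (200 mmol/L, a salt-alkali stress) and are used here only where a control result is set beside them. Each library was made from total RNA. The sources used here do not give plant age, leaf position or growth stage, and each variety stands for itself alone.

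The table lists only genes that the authors had already called different between these same libraries, since in the authors' deposited table the smallest log2 fold change was 1.00 in size and no adjusted p exceeded 0.05. A count of listed or passing genes is therefore a description of the selection and not evidence of a difference. Levels are in FPKM, which divides the fragments of a gene by its length and by the library's total. No read totals come with the tables, so the depth is unknown. Listed FPKM summed to 157998 to 158464 in the QJ libraries and to 232682 to 233962 in the LJ libraries, and 1039 to 1071 listed genes stood at 0 in a QJ library against 279 to 295 in an LJ library. Rubisco and photosystem II transcripts, markers of the leaf blade, were abundant in all 6 libraries, as given below. Among listed genes, the median CV between replicates was 16.3% in QJ and 16.5% in LJ for genes at 1 to 3 FPKM. It was 1.43% and 1.71% for genes at 300 FPKM or more. The authors' selection on these same libraries can favour genes with a small spread. These values therefore do not show how close the replicates were over all genes.

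Rice leaves form a blade whose mesophyll carries the photosynthetic apparatus, while veins hold cells with thick secondary walls of cellulose, xylan and lignin. Before heading, the shoot apex turns from making leaves to making a panicle, and floral organs then switch on MADS-box genes and the tapetum, the tissue that feeds the pollen. Rice varieties also differ in resistance genes, which lie in clusters and are often present in one variety and missing or broken in another.

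Of the 7844 listed genes, 6108 reached 1 FPKM in at least 3 of the 6 libraries and were tested with limma on log2(FPKM + 1). An adjusted p under 0.05 was found for 6088 of them, 99.7% of those tested, with 1897 higher in QJ (31.1%) and 4191 lower in QJ (68.6%). The groups did not overlap for 6068 genes, 99.3% of those tested. The authors' selection on these same libraries largely sets that share, so such separation sets no single gene apart. A gene that reached 1 FPKM in 1 variety alone had to differ, so counts of list members describe the table and test nothing further. The median difference over all tested genes was -1.02, QJ minus LJ, on the log2(FPKM + 1) scale, and shifting each library to a common median moved it up by 0.60. List medians below are therefore given to be read against -1.02. The excess of lower genes was present at each level looked at. Genes lower in QJ made up 70.2% of tested genes whose higher group lay from 1 FPKM to under 10, 64.9% of those from 10 FPKM to under 100 and 74.2% of those at 100 FPKM or more. Differences of at least 2 on the log2 scale were found for 338 genes higher and 944 genes lower in QJ, and differences of at least 5 for 16 higher and 43 lower. Shares of list members below are read against 68.6% lower and 31.1% higher.

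Genes of floral organ identity had the lowest median of the lists with at least 10 tested members. Of 19 listed, 16 were tested, 15 lower and 1 higher in QJ, with a median difference of -2.94. OsMADS7 (Os08g0531700), a SEPALLATA-like MADS-box factor of floral organs, stood at 0 in all 3 QJ libraries and at 37.6, 40.4 and 37.4 FPKM in the LJ libraries, and its close relative OsMADS24 (Os09g0507200) at 0 in all 3 and at 33.8, 37.3 and 37.2 FPKM. Both were listed at 0 in every QJ library and were present in every LJ library. LHS1 (Os03g0215400), which specifies the lemma and palea of the rice floret, had 1.63, 1.04 and 1.48 FPKM in QJ and 79.1, 72.99 and 74.5 FPKM in LJ, a difference of -5.01 (SE 0.101) and 32.3-fold lower in QJ. Folds here and below are ratios of mean FPKM, given only where the lower group averaged at least 1 FPKM, and differences are on the log2(FPKM + 1) scale, which understates those of low genes. OsMADS2 (Os01g0883100), a class B gene of lodicules and stamens, had 0.54, 0.62 and 0.24 FPKM in QJ and 32.4, 31.7 and 29.4 FPKM in LJ (-4.46 on the log2 scale).

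Further organ identity genes were likewise lower in QJ. The ovule gene OsMADS13 (Os12g0207000) stood at 0 in all 3 QJ libraries and at 4.47, 4.31 and 4.39 FPKM in LJ. The class C gene MADS58 (Os05g0203800) and the carpel and leaf midrib gene DL (Os03g0215200) averaged 0.05 ± 0.0436 and 0.0533 ± 0.0462 FPKM in QJ against 4.57 ± 0.188 and 7.81 ± 0.303 FPKM in LJ (mean ± SD, n = 3). MADS14 (Os03g0752800), which acts from the floral transition on, was well expressed in both varieties, at 44.1, 42 and 37.1 FPKM in QJ and 211, 200.3 and 201 FPKM in LJ, 4.88-fold lower in QJ. The class B gene SPW1 (Os06g0712700) had 8.61, 7.75 and 8.97 FPKM in QJ and 39.6, 41.1 and 42.9 FPKM in LJ. The 1 member higher in QJ was OsMADS27 (Os02g0579600), a MADS-box gene known from roots and nitrate response, at 17.7, 18.1 and 17.1 FPKM against 8.34, 7.13 and 7.81 FPKM.

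Anther genes were mostly low in QJ. Of 31 listed genes of tapetum, anther and pollen wall, 22 were tested, 21 lower and 1 higher in QJ, with a median difference of -1.73. Of the 31, 9 were at 0 in all QJ libraries. The summed level of the list was 18.3 to 19.6 FPKM in the QJ libraries and 503 to 515 FPKM in the LJ libraries. Most of the LJ sum came from OSC6, RTS and Osc4. OSC6 (Os11g0582500), a tapetal lipid transfer protein needed for the pollen wall, had 0.11, 0 and 0 FPKM in QJ and 150.1, 157 and 155 FPKM in LJ, a difference of -7.22 (SE 0.0673) with a limma adjusted p of 1.2e-10. RTS (Os01g0929600), a tapetum gene required for male fertility, was at 0 in all 3 QJ libraries and at 123.2, 128 and 115 FPKM in LJ. The anther gene Osc4 (Os08g0546300) had 0.44, 0.45 and 0 FPKM in QJ and 94.03, 95.5 and 96.9 FPKM in LJ.

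Members that build the pollen wall followed. OsLAP6 (Os10g0484800), a polyketide synthase of sporopollenin, was at 0 in all 3 QJ libraries and at 9.9, 11.3 and 9.79 FPKM in LJ. The fatty acid hydroxylase CYP704B2 (Os03g0168600) averaged 0.0833 ± 0.0850 FPKM in QJ and 5.72 ± 0.571 FPKM in LJ, and the tapetal OsRAFTIN1 (Os08g0496800) 0.0167 ± 0.0289 and 12.00 ± 0.844 FPKM. WDA1 (Os10g0471100), a wax gene known from a male-sterile mutant, stood at 0 in all 3 QJ libraries and at 22.6, 20.5 and 21.1 FPKM in LJ. The exception was OsGEX2 (Os09g0424701), a gamete gene, at 6.73, 6.4 and 6.63 FPKM in QJ and 1.19, 0.7 and 1.12 FPKM in LJ. Of 29 tested OsSTA genes, a family named from expression in stamens, 23 were lower and 6 higher in QJ, with a median difference of -0.94, close to that of all tested genes.

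Markers of the shoot meristem were near 0 in QJ. The KNOX genes OSH15 (Os07g0129700) and OSH1 (Os03g0727000), which keep meristem cells undifferentiated, had 14.4 ± 1.22 and 8.93 ± 0.863 FPKM in LJ. In QJ the former was at 0 in all 3 libraries and the latter at 0, 0.05 and 0 FPKM. All 4 tested members of that list were lower in QJ, and the summed list was at 0.97 to 1.20 FPKM in QJ and 27.7 to 32.8 FPKM in LJ. YAB1 (Os07g0160100), a YABBY factor of lateral organs, had 7.71, 5.93 and 6.53 FPKM in QJ and 126, 123.9 and 127 FPKM in LJ, 16.4-fold lower in QJ. The LJ libraries labelled as leaf carried transcripts of genes known from floral organs, anthers and meristem in all 3 replicates. In QJ, 5 of 19 listed floral, 9 of 31 anther and 2 of 6 meristem genes stood at 0 in all 3 libraries. The floral list still summed to 71.9 to 80.5 FPKM in QJ, against 504 to 519 FPKM in LJ. In bulk tissue, fewer cells of a type and less RNA per cell cannot be told apart. The tissue that these transcripts came from, and any part of other organs in the further results, were not tested.

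A flowering signal differed in the same direction. Hd3a (Os06g0157700), a mobile florigen made in leaves, was at 0 in all 3 QJ libraries and at 2.37, 2.8 and 2.91 FPKM in LJ.

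**Figure D1:**
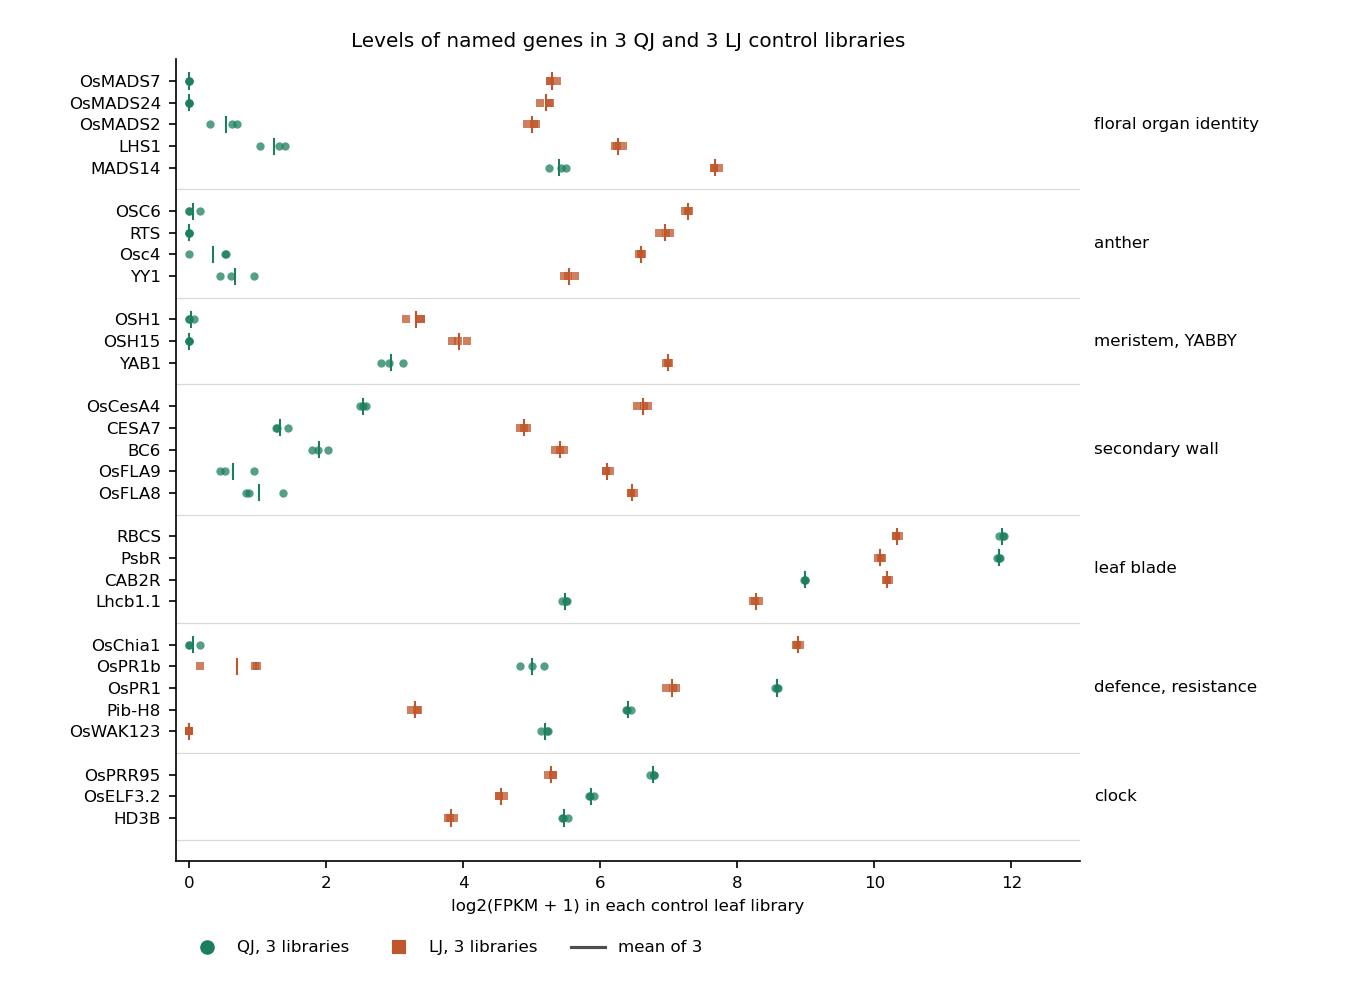
Level of 29 named genes in each of the 3 QJ (circles) and 3 LJ (squares) control libraries, in log2(FPKM + 1) on the horizontal axis, with a tick at the mean of 3. The groups do not overlap for any gene shown, as for 99.3% of all tested genes. Floral, anther, meristem and secondary wall genes lie to the left in QJ, at or near 0 for OsMADS7, OsMADS24, OSC6 and RTS, while RBCS, PsbR, OsPR1b, Pib-H8, OsWAK123 and the clock genes lie to the right in QJ.

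Secondary wall genes were lower in QJ without exception among those tested, 41 of 41, with a median difference of -2.42. Their summed level was 413 to 431 FPKM in QJ and 2178 to 2342 FPKM in LJ. The cellulose synthases that build the secondary wall were OsCesA4 (Os01g0750300), with 4.83, 4.61 and 4.95 FPKM in QJ and 91.6, 98.5 and 102 FPKM in LJ, CESA7 (Os10g0467800), with 1.44, 1.4 and 1.71 and 28.6, 27.4 and 29.3 FPKM, and BC6 (Os09g0422500), with 2.48, 3.06 and 2.69 and 39.5, 41.4 and 43.4 FPKM. The difference was -4.09 (SE 0.0573) for OsCesA4, -3.55 (SE 0.0784) for CESA7 and -3.50 (SE 0.0781) for BC6. All 3 subunits of the complex were lower in QJ, by 16.97-fold, 11.7-fold and 11.3-fold.

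The COBRA-like gene BC1 (Os03g0416200), which sets the mechanical strength of rice culms, had 0.56, 0.46 and 0.65 FPKM in QJ and 26.7, 24.4 and 25.7 FPKM in LJ. Xylan synthesis genes were less apart. OsIRX14 (Os06g0687900) had 151, 150.4 and 141 FPKM in QJ and 393, 503 and 479.5 FPKM in LJ, 3.08-fold lower, and OsIRX10 (Os01g0926700) was 6.41-fold lower. Fasciclin-like arabinogalactan proteins, wall proteins of fibre cells, held the largest differences of the list. OsFLA9 (Os05g0163300) had 0.36, 0.44 and 0.93 FPKM in QJ and 66.5, 69.2 and 66.4 FPKM in LJ (-5.46), and OsFLA8 (Os01g0159200) had 0.84, 0.77 and 1.58 and 86.7, 88.6 and 86.3 FPKM (-5.44).

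Lignin and phenylpropanoid genes were lower in QJ for 23 of 29 tested and higher for 6, with a median of -1.72. OsPAL (Os02g0626400), the entry enzyme of the pathway by its name, had 102, 109.7 and 109 FPKM in QJ and 369, 383 and 377 FPKM in LJ, 3.49-fold lower. The reductase OsCCR21 (Os02g0180700) was 5.01-fold lower in QJ, and OsC4H (Os02g0467000), a cinnamate hydroxylase by its name, averaged 0.52 ± 0.171 and 21.8 ± 4.47 FPKM. A laccase, listed as Lac (Os03g0273200), had 0.07, 0.03 and 0.03 FPKM in QJ and 23.1, 24.4 and 23.2 FPKM in LJ. Reads of close gene copies may be shared among laccases, fasciclin-like genes and the other families below, and the sources used here do not say how they were counted.

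Genes of growing primary walls were lower in QJ for 38 of 46 tested, with a median of -1.51. Among xyloglucan endotransglucosylases, which cut and rejoin wall polymers, OsXTH11 (Os06g0696400) had 26.9, 31.5 and 30.02 FPKM in QJ and 272, 277 and 264 FPKM in LJ, 8.94-fold lower. The neighbouring gene OsXTH10 (Os06g0697000) was 5.27-fold lower and OsXTH17 (Os08g0237000) 2.93-fold lower. The expansin OsEXPA7 (Os03g0822000), of a family that loosens walls, had 0.33, 0.29 and 0.25 FPKM in QJ and 29.1, 30.7 and 30.7 FPKM in LJ. All 23 tested pectin-modifying genes were lower in QJ (median -1.80), as were 14 of 15 wall acetyltransferase genes of the trichome birefringence family and 9 of 10 cellulases. OsTBL6 (Os03g0817800), an acetyltransferase of this family, had 1.84, 2.63 and 2.23 FPKM in QJ and 52.4, 53.8 and 51.7 FPKM in LJ. The cellulase OsGH9B5 (Os09g0533900) was 7.88-fold lower in QJ.

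Genes of the cytoskeleton and the cell cycle showed the same direction. All 6 tested tubulin genes were lower in QJ. OsTUB1 (Os01g0282800) had 2.37, 3.2 and 2.57 FPKM in QJ and 56.3, 59.4 and 59.05 FPKM in LJ, 16.03-fold lower, whereas the more abundant OsTubA3 (Os03g0726100) was 2.07-fold lower. DNA replication and cell division genes were lower in QJ for 26 of 30 tested and higher for 4, with a median of -1.23. The kinesins KIN14C (Os01g0744000) and KIN14H (Os04g0629700) had 2.49 ± 0.116 and 3.02 ± 0.303 FPKM in QJ against 25.5 ± 0.824 and 26.3 ± 1.67 FPKM in LJ. CycU3 (Os05g0398000), a cyclin of the U class, went the other way, at 37.2, 34.99 and 33.9 FPKM in QJ and 11.6, 10.6 and 11.4 FPKM in LJ.

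Secreted lipid transfer proteins, small carriers of wall and cuticle lipids, were lower in QJ for 30 of 33 tested genes, yet their summed FPKM differed little, at 1380 to 1411 in QJ and 1517 to 1530 in LJ. The sum in QJ was made up largely by 1 gene. OsLTP1.18 (Os12g0115100) had 985, 974 and 970.2 FPKM in QJ and 84.5, 87.4 and 87.4 FPKM in LJ, 11.2-fold higher in QJ and a difference of 3.48 (SE 0.0216). Its counterpart by locus number on chromosome 11, OsLTP1.9 (Os11g0115100), had 0.61, 0.46 and 0.47 FPKM in QJ and 248, 235 and 237 FPKM in LJ (-7.32). The ends of chromosomes 11 and 12 hold an ancient duplication in rice, so reads may be shared between these genes, and the direction of each alone is uncertain.

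Other lipid transfer genes were almost silent in QJ. OsLTP1.3 (Os03g0808500) had 0, 0 and 0.17 FPKM in QJ and 135, 147 and 156 FPKM in LJ, and OsLTPd11 (Os10g0148000) had 0.34, 0.32 and 0 and 159.7, 150.3 and 163 FPKM. The LTPd11 gene lies beside a run of genes on chromosome 10 described below. Arabinogalactan proteins and uclacyanins were lower for 35 of 36 tested genes. OsAGP12 (Os01g0110200) had 0.44, 0.7 and 0.18 FPKM in QJ and 74.7, 76.6 and 67.1 FPKM in LJ, and the most abundant member, OsAGP3 (Os03g0188500), 723, 702 and 819.7 and 1508, 1568 and 1560.5 FPKM. RALF signalling peptides were lower in QJ for 14 of 15 and GDSL lipases for 34 of 39. In the latter family, OsGELP77 (Os06g0156600) had 2.47, 2.37 and 3.04 FPKM in QJ and 84.99, 88.3 and 88.8 FPKM in LJ, while OsGELP21 (Os01g0650200) was 2.78-fold higher in QJ.

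**Figure D2:**
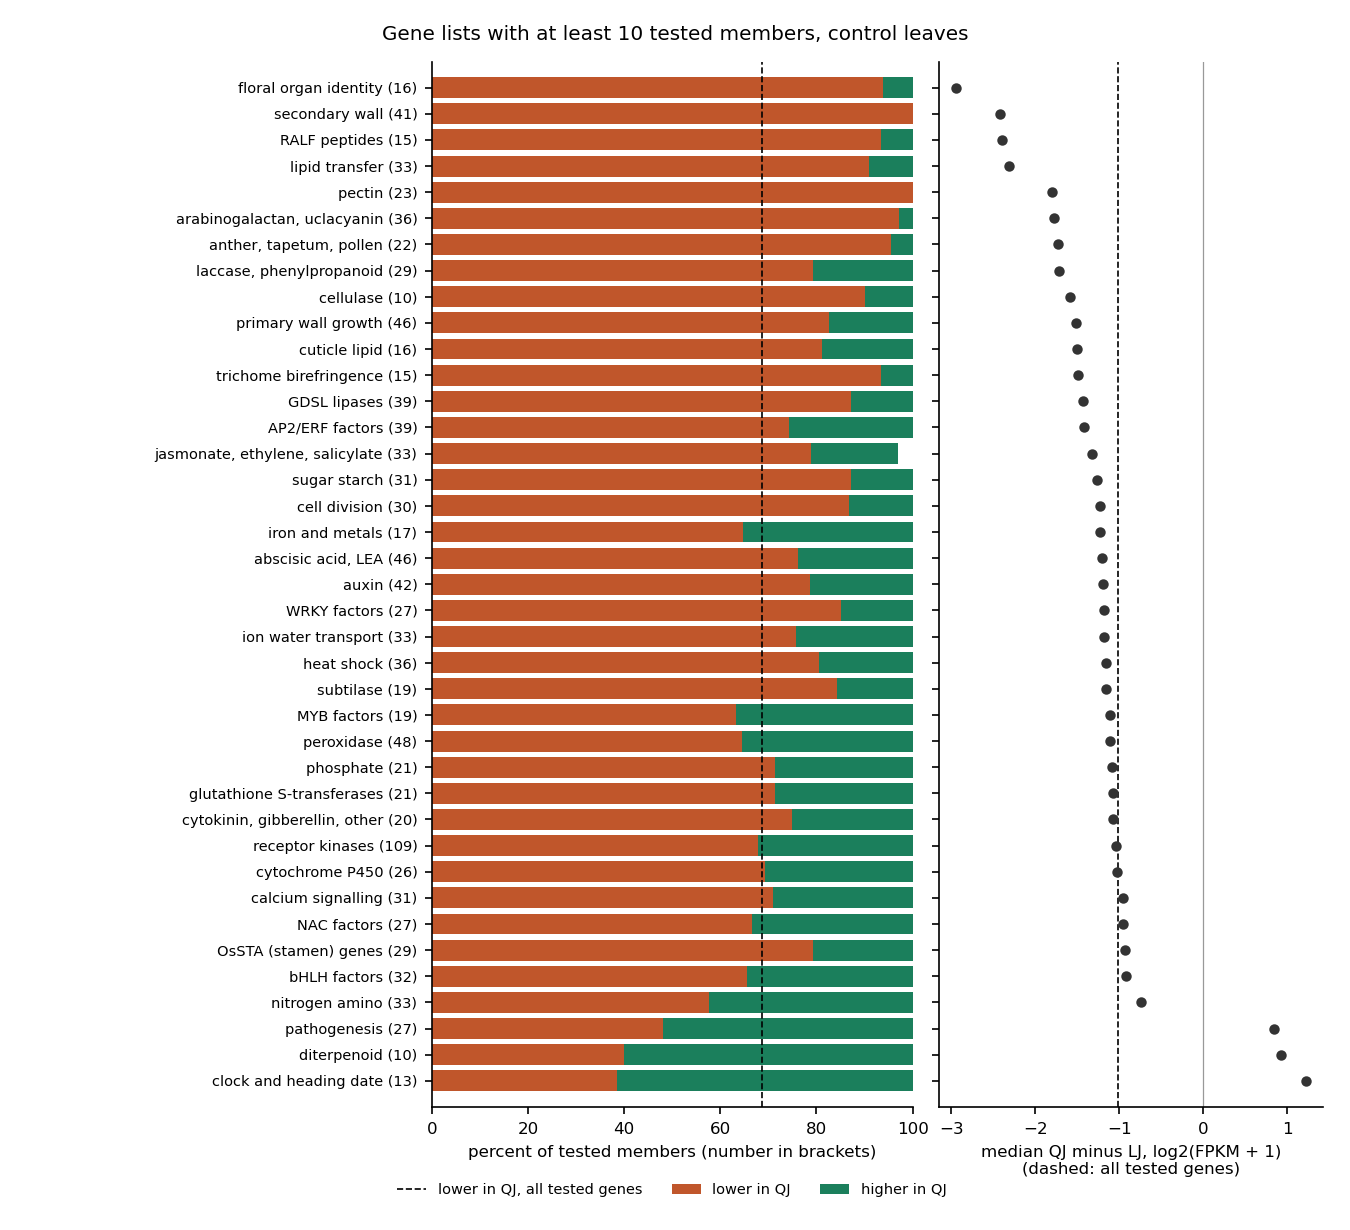
Share of tested members lower (left colour) and higher (right colour) in QJ controls for gene lists with at least 10 tested members, beside the median difference on the log2(FPKM + 1) scale. Dashed lines mark 68.6% and -1.02, the values over all tested genes. Floral, wall and lipid transfer lists lie at the low end, clock, diterpenoid and pathogenesis-related lists at the other, and a gap in the bar of the jasmonate list is 1 gene that did not pass.

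Photosynthesis genes were split. Few of them are in the table. All 7 listed genes of light harvesting and the photosystems were tested, 4 higher and 3 lower in QJ, and 3 of 4 listed Calvin cycle genes were tested, 1 higher and 2 lower. The Rubisco small subunit RBCS (Os12g0274700), part of the enzyme that fixes carbon dioxide, had 3773, 3616 and 3793 FPKM in QJ and 1278, 1267 and 1309 FPKM in LJ, 2.90-fold higher in QJ with a difference of 1.54 (SE 0.0211). PsbR (Os07g0147500), a photosystem II subunit, had 3632, 3623 and 3526 FPKM in QJ and 1099, 1061 and 1088 FPKM in LJ, 3.32-fold higher in QJ. Both genes exceeded 1000 FPKM in every library of either variety.

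The named light-harvesting proteins were lower in QJ. CAB2R (Os01g0600900), a chlorophyll a/b-binding protein, had 503, 509 and 508 FPKM in QJ and 1167, 1184 and 1146 FPKM in LJ, 2.30-fold lower in QJ. Lhcb1.1 (Os01g0720500) had 44.4, 44.5 and 42.2 FPKM in QJ and 299.6, 318 and 305 FPKM in LJ, 6.90-fold lower, and LHCB (Os03g0592500) was 1.95-fold lower. PSBS2 (Os04g0690800), which acts in the dissipation of excess light, was 2.36-fold higher in QJ. The minor Rubisco gene RbcS1 (Os02g0152400), known from tissues other than the leaf blade, had 0.14, 0.29 and 0.12 FPKM in QJ and 5.93, 6.09 and 6.26 FPKM in LJ. HEMA1 (Os10g0502400), which starts chlorophyll synthesis, was 2.35-fold lower in QJ.

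Circadian clock and heading date genes were mostly higher in QJ, 8 of 13 tested against 31.1% of all tested genes, with a median of 1.22. OsPRR95 (Os09g0532400), a pseudo-response regulator of the clock, had 109, 109 and 105 FPKM in QJ and 38.5, 36.6 and 38.8 FPKM in LJ, 2.79-fold higher. The evening complex genes OsELF3.2 (Os01g0566100), HD3B (Os06g0142600) and ELF4_chr.11 (Os11g0621500) were 2.49-fold, 3.15-fold and 4.48-fold higher in QJ. A locus named LHY (Os04g0583900) was also higher, at 5.38, 5.04 and 4.77 FPKM against 1.32, 1.24 and 1.38 FPKM. LHY is the name of a morning clock gene, but the name alone does not show that this locus is that gene. The sources used here do not give the time of day at sampling.

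OsCOL4 (Os02g0610500), a CONSTANS-like repressor of flowering, had 25.7, 23.99 and 24.1 FPKM in QJ and 7.68, 6.96 and 7.4 FPKM in LJ, and HD5 (Os08g0174500), a nuclear factor Y subunit that delays heading under long days, 5.53, 5.39 and 5.17 and 1.68, 2.27 and 1.47 FPKM. The groups did not overlap for either gene, as for 99.3% of all tested genes. The 5 members lower in QJ included Hd3a, the florigen transport relative OsFTIP7 (Os05g0370600) at 0.423 ± 0.275 against 5.58 ± 0.508 FPKM, and HD6 (Os03g0762000), a casein kinase subunit also known to delay heading under long days, 2.53-fold lower in QJ.

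Defence genes were split by class. Pathogenesis-related proteins, chitinases and glucanases had 14 members higher and 13 lower in QJ of 27 tested, and the list's median of 0.84 turned to -0.42 with untested low genes added. OsChia1 (Os05g0399700), a chitinase, had the largest difference of any named gene, with 0.12, 0 and 0 FPKM in QJ and 468, 482 and 461 FPKM in LJ, a difference of -8.83 (SE 0.0609) with a limma adjusted p of 5.2e-11. Rir1b (Os10g0569800), a defence response gene, had 0.23, 0.23 and 0.47 FPKM in QJ and 93.2, 92.5 and 94.9 FPKM in LJ. The abundant chitinase Cht6 (Os02g0605900) was 3.60-fold lower in QJ.

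Some classical pathogenesis-related genes were higher in QJ. OsPR1b (Os01g0382000) had 35.3, 27.3 and 31 FPKM in QJ and 0.11, 0.94 and 0.98 FPKM in LJ, a difference of 4.30 (SE 0.226). The glucanase OsPR2 (Os05g0375400) had 55.1, 56.1 and 52.99 FPKM in QJ and 2.83, 3.21 and 2.63 FPKM in LJ, 14.4-fold higher, and OsPR1 (Os07g0129300) 387, 372 and 381 and 123.8, 136 and 133 FPKM. Diterpenoid phytoalexin genes, which make antimicrobial compounds of rice, had 6 members higher and 4 lower of 10 tested. CYP76M1 (Os08g0465700) was 2.80-fold higher and OsCPS3 (Os09g0319800), a diterpene cyclase, 2.14-fold higher in QJ.

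All 6 tested resistance genes were higher in QJ, with a median of 1.5 and a summed list of 112 to 116 FPKM in QJ and 15.9 to 17.8 FPKM in LJ. Most of these genes encode intracellular receptors with a nucleotide-binding site and leucine-rich repeats. Pib-H8 (Os08g0539700) made up most of the sum, with 82.3, 82.5 and 85.9 FPKM in QJ and 8.4, 9.07 and 9.03 FPKM in LJ, 8.60-fold higher. Os11gRGA3 (Os11g0224900) was 3.47-fold higher, and Os11gRGA5 (Os11g0225300), a blast resistance receptor, had 5.59, 5.36 and 5.16 FPKM in QJ and 0.14, 0.98 and 0.76 FPKM in LJ. The planthopper resistance gene Bph14 (Os03g0848700) was 2.03-fold higher and the blast resistance gene Pi-ta (Os12g0281300) 2.16-fold. Names come from the annotation and do not type the alleles of either variety.

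Receptor-like kinases were close to the background, 35 of 109 tested higher and 74 lower in QJ. Single members were far apart. The wall-associated kinase OsWAK123 (Os11g0694100) had 34.2, 36.6 and 36.3 FPKM in QJ and was at 0 in all 3 LJ libraries, and WAK112 (Os10g0180800) of the same family was 2.25-fold higher in QJ. A pair of neighbouring loci that share the name OsRLCK144 were lower in QJ. Os04g0369000 had 0.21, 0 and 0 FPKM in QJ and 82.5, 81.6 and 88.2 FPKM in LJ, and Os04g0369066 2.27, 2.16 and 2.32 and 159, 162 and 162 FPKM.

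Among transcription factor families of stress signalling, WRKY factors had 23 of 27 tested members lower and 4 higher in QJ, and a summed level of 2621 to 2639 FPKM in QJ and 4746 to 4893 FPKM in LJ. WRKY71 (Os02g0181300) and WRKY76 (Os09g0417600), both known from defence signalling, were 2.02-fold and 2.59-fold lower in QJ. OsWRKY69 (Os08g0386200) went the other way, with 549, 546 and 549 FPKM in QJ and 157, 162 and 153 FPKM in LJ. AP2/ERF factors were lower for 29 of 39, nearer the 68.6% of all tested genes. The cold response factor OsDREB1C (Os06g0127100) had 81.98, 85.3 and 78.3 FPKM in QJ and 328, 345 and 312 FPKM in LJ, 3.98-fold lower, while DERF12 (Os10g0562900) was 2.63-fold higher. NAC factors divided near the background, 18 lower and 9 higher of 27, with ENAC1 (Os01g0862800) 3.30-fold lower and ONAC103 (Os07g0683200) 4.89-fold higher in QJ.

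Jasmonate, ethylene and salicylate genes were lower in QJ for 26 of 33 tested, higher for 6 and not called for 1. Their summed level was 3781 to 3839 FPKM in QJ and 8729 to 8828 FPKM in LJ. JAZ proteins, repressors that jasmonate itself induces, made up much of it. OsJAZ5 (Os03g0402800) had 829, 831 and 807 FPKM in QJ and 1991, 1941 and 1998 FPKM in LJ, 2.40-fold lower, and OsJAZ4 (Os03g0181100) and OsTIFY11d (Os10g0392400) were 1.84-fold and 2.49-fold lower. OsCYP94C2 (Os11g0151400), of a cytochrome P450 family that breaks down jasmonate, was 2.67-fold lower. Among calcium sensors and kinases, 22 of 31 were lower in QJ, and CDPK4 (Os02g0126400) had 139.9, 138 and 133 FPKM in QJ and 692, 691 and 693 FPKM in LJ, 5.02-fold lower. OsCIPK33 (Os11g0134300), a kinase of calcium signalling, was 14.5-fold higher, at 32.3, 30.8 and 31.6 against 1.2, 1.21 and 1.3 FPKM. By locus number OsCIPK33 and OsCYP94C2 stand towards the start of chromosome 11. The limit on shared reads given for OsLTP1.9 may therefore apply to both.

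Growth hormone genes held both directions. Auxin genes were lower in QJ for 33 of 42 tested. SAUR39 (Os09g0545300), a repressor of auxin synthesis, had 47.9, 45.1 and 39.9 FPKM in QJ and 3.62, 2.53 and 4.08 FPKM in LJ, 10.4-fold higher in QJ. OsARFA1e (Os01g0265100) had 1, 1.01 and 0.52 FPKM in QJ and 29.02, 33.9 and 31.2 FPKM in LJ. It was matched to this list by name alone and may belong to another gene family, so its place among the auxin genes is uncertain. D14 (Os03g0203200), the strigolactone receptor, had 361, 356 and 358 FPKM in QJ and 126, 126 and 131 FPKM in LJ, 2.80-fold higher. LOG1 (Os01g0588900), of a family that activates cytokinins, was 1.86-fold lower.

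Sugar genes were lower in QJ for 27 of 31 tested, with a summed level of 1294 to 1311 FPKM in QJ and 4525 to 4603 FPKM in LJ. Sucrose synthase SUS1 (Os03g0401300), which splits sucrose in tissues that import it, had 15.1, 17.4 and 19.4 FPKM in QJ and 513, 520.0 and 502 FPKM in LJ, 28.1-fold lower. The monosaccharide transporter OsMST6 (Os07g0559700) had 319, 319 and 322 FPKM in QJ and 1485, 1512 and 1484 FPKM in LJ, 4.66-fold lower. The trehalose-6-phosphate phosphatases OsTPP1 (Os02g0661100) and OsTPP7 (Os09g0369400) were 2.51-fold and 2.50-fold lower.

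Metallothioneins, small metal-binding proteins, were among the most abundant transcripts lower in QJ. OsMT2c (Os01g0974200) had 256, 250.2 and 254 FPKM in QJ and 2177, 2128 and 2089 FPKM in LJ, 8.38-fold lower, and OsMT2b (Os05g0111300) 107, 109.5 and 101 and 1372, 1325 and 1318 FPKM, 12.5-fold lower. Over the whole metal list 11 were lower and 6 higher of 17, with a median of -1.23, but 6 were lower and 6 higher, with a median of 0.031, where 5 FPKM was required in 3 libraries. OsDMAS1 (Os03g0237100), which makes the iron chelator of grasses, was 2.78-fold higher in QJ. CAL1 (Os02g0629800), a defensin-like protein known from cadmium transport, was at 0 in all 3 QJ libraries and at 17.96, 16.9 and 18.9 FPKM in LJ.

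Transporters of ions and water were lower for 25 of 33 tested. The vacuolar proton pumps differed in sign. OVP1 (Os06g0644200) had 243, 245 and 248 FPKM in QJ and 117, 121 and 121 FPKM in LJ, 2.04-fold higher, and OVP2 (Os06g0178900) 12.4, 11.2 and 12.1 and 90.7, 87.7 and 88.1 FPKM, 6.95-fold lower. The tonoplast aquaporin OsTIP4 (Os05g0231700) was 2.44-fold higher and the potassium transporter HAK1 (Os04g0401700) 2.17-fold lower in QJ. SKC1 (Os01g0307500), the sodium transporter behind a salt tolerance locus of rice, was low in both, at 0.22, 0.16 and 0.13 FPKM in QJ and 2.04, 2.19 and 1.9 FPKM in LJ. Nitrogen genes had 19 lower and 14 higher of 33, with a median of -0.75 that was 0.048 after quantile normalization and 1.06, with 11 higher and 9 lower, where 5 FPKM was required in 3 libraries. Nitrite reductase, NiR (Os01g0357100), was 2.95-fold higher in QJ. Phosphate genes had 15 lower and 6 higher of 21, and the phosphate transporter PT8 (Os10g0444700) was 3.52-fold lower.

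Genes of abscisic acid and late embryogenesis abundant proteins, which protect cells from drying, were lower for 35 of 46. The most abundant members pointed in opposite directions. OsLEA9 (Os01g0314800) had 1695, 1750.1 and 1899.9 FPKM in QJ and 5529.5, 5738 and 5868 FPKM in LJ, 3.21-fold lower, and OsLEA24 (Os03g0655400) 2359, 2403 and 2360.5 and 290.3, 325 and 304 FPKM, 7.73-fold higher. RD22 (Os10g0409400), named for a dehydration-responsive gene family, had 1023, 1036 and 1071 FPKM in QJ and 68.6, 69.4 and 72.8 FPKM in LJ, 14.7-fold higher. Heat shock factors and chaperones were lower for 29 of 36.

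Several further families held a mixture. Wax, cutin and fatty acid genes were lower for 13 of 16 tested and subtilisin-like proteases for 16 of 19. The transporter OsABCG44 (Os08g0384500) had 87.1, 82.6 and 89.2 FPKM in QJ and 453, 458 and 459 FPKM in LJ, 5.25-fold lower, and OsFAD7 (Os03g0290300), a desaturase of chloroplast lipids, was 3.49-fold lower. Glutathione S-transferases were lower for 15 of 21, MYB factors for 12 of 19, bHLH factors for 21 of 32 and cytochrome P450 genes for 18 of 26, shares near the background. The flavonoid enzyme CYP75B4 (Os10g0317900) had 6.97, 7.96 and 8.5 FPKM in QJ and 94.95, 85.8 and 98.04 FPKM in LJ, 10.7-fold lower, whereas OsGSTU23 (Os10g0530400), a glutathione S-transferase, was 2.65-fold higher.

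Class III peroxidases, secreted enzymes of wall cross-linking, were lower in QJ for 31 of 48 and higher for 17, a share near the background, yet their summed level was higher in QJ, 2323 to 2358 FPKM against 1187 to 1205 FPKM. A few abundant members carried the sum. POX22.3 (Os07g0677200) had 521, 517 and 518 FPKM in QJ and 75.2, 77.6 and 68.4 FPKM in LJ, 6.96-fold higher. prx59 (Os04g0688100) and prx29 (Os02g0240300) were 3.61-fold and 5.01-fold higher. At the other end, prx39 (Os03g0234900) had 0.06, 0 and 0.07 FPKM in QJ and 52.7, 53.7 and 52.02 FPKM in LJ.

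Of 15 listed genes known from natural variation in plant form, grain or seed, 8 were tested, 6 lower and 2 higher in QJ. GL7 (Os07g0603300), a grain length gene, had 8, 7.46 and 6.76 FPKM in QJ and 38.03, 34.1 and 37.2 FPKM in LJ, 4.46-fold lower. DEP1 (Os09g0441900), a G protein subunit that sets panicle density, had 4.25, 3.92 and 3.91 FPKM in QJ and 16.6, 14.9 and 17.8 FPKM in LJ, 3.46-fold lower. Sc-j (Os03g0247300) carries the name of the japonica form of a hybrid sterility gene and had 35.1, 32.3 and 34.2 FPKM in QJ and 0.14, 0 and 0.05 FPKM in LJ. That difference of 5.04 (SE 0.0874) was present again in stressed leaves, with means of 40.3 FPKM in QJ and a value of 0 listed for LJ.

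Some genes were expressed in 1 variety only, which is set here as under 0.1 FPKM in all 3 libraries of one variety and at least 1 FPKM in all 3 of the other. LJ alone expressed 339 listed genes, 226 of them at exactly 0 in all QJ libraries, and QJ alone expressed 130, with 104 at exactly 0 in LJ. The QJ genes were higher in level, with a median of 5.80 FPKM against 2.95 FPKM, and fewer had a gene name, 18 of 130 against 146 of 339. Since the authors selected the table on these values, the counts are a description. The limits matter for them. With the low limit at 0.3 FPKM, LJ alone had 626 genes, and with at least 5 FPKM in the expressing variety the counts were 91 in LJ and 64 in QJ.

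Stressed leaves, which are separate libraries, showed which of these genes were expressed again. Of 120 QJ-only genes with a value in stressed QJ leaves, 83 reached 1 FPKM there (69.2%) and 23 were under 0.1 FPKM. Of 333 LJ-only genes with a value in stressed LJ leaves, 71 reached 1 FPKM (21.3%) and 115 were under 0.1 FPKM (34.5%). Where all 12 libraries had values, 67 of 93 QJ-only genes and 23 of 141 LJ-only genes met the same rule in stressed leaves. The deposited tables choose which genes have such values, so these shares are given without a test.

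The QJ-only genes with the highest levels had no name in the files and were expressed under stress too. Os08g0300501 had 201, 202 and 201 FPKM in QJ controls and 0.07, 0 and 0.06 FPKM in LJ controls, with means of 315 and 0.0433 FPKM under stress. Os12g0117700 had 161, 182 and 196 FPKM in QJ and was at 0 in all 3 LJ control libraries, with 114 and 0 FPKM under stress. Os11g0206000, at 143 FPKM in QJ and 0.0633 in LJ, also averaged 104 FPKM in stressed QJ leaves. OsWAK123, listed at 0 in every LJ control library, averaged 47.2 FPKM in stressed QJ and 0.0133 FPKM in stressed LJ leaves. These unnamed genes were singled out after their values were seen.

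A value of 0 in controls did not always go with 0 under stress. Os04g0121800, the highest LJ-only gene, was at 0 in all 3 QJ control libraries and at 267, 265 and 275 FPKM in LJ controls, yet averaged 156 FPKM in stressed QJ and 791 FPKM in stressed LJ leaves. In all, 23 LJ-only genes reached 1 FPKM in stressed QJ leaves and 9 QJ-only genes in stressed LJ leaves. P0005H10.10-1 (Os01g0847100), with 19.8, 16.9 and 20.9 FPKM in QJ and at 0 in all 3 LJ control libraries, averaged 7.14 FPKM in stressed LJ leaves. The chloroplast gene psbD (gene-psbD) was among these 9, with a mean of 4.17 FPKM in QJ controls.

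**Figure D3:**
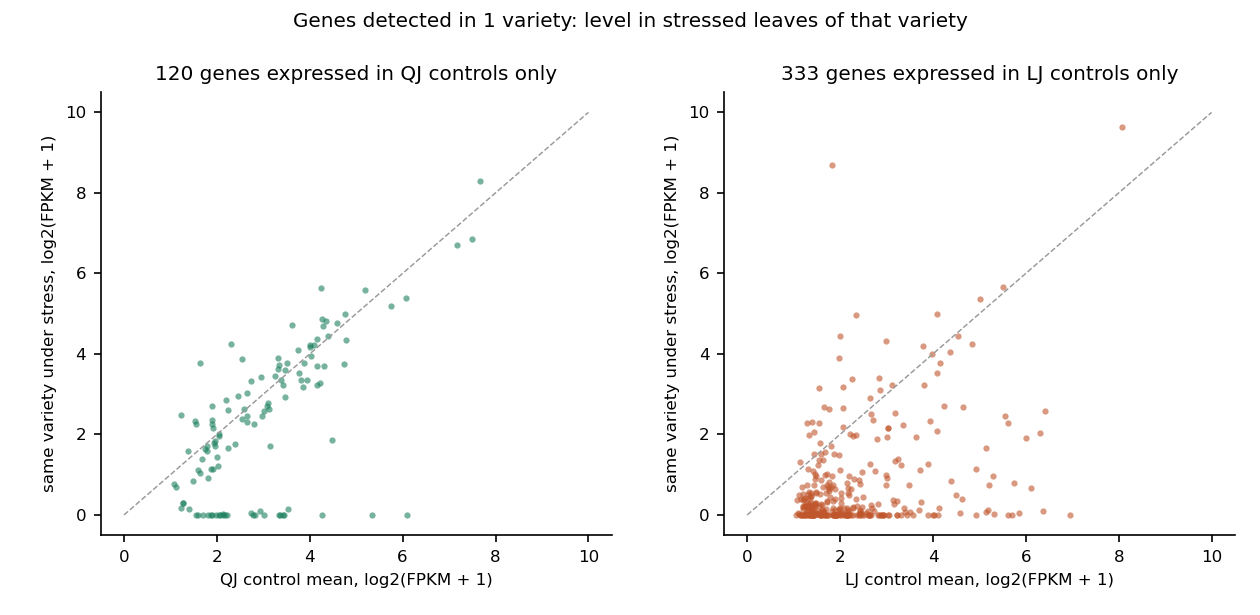
Mean level of genes expressed in 1 variety, in control leaves (horizontal) and in stressed leaves of the same variety (vertical), in log2(FPKM + 1), for 120 QJ-only and 333 LJ-only genes with a value there. The dashed line marks equal levels. QJ-only genes lie along the line apart from a row at 0, while most LJ-only genes lie under it.

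Several of the genes expressed in 1 variety were neighbours by locus number. Taking at least 3 such genes with steps of at most 1000 in their locus number, LJ had 10 runs with 43 genes and QJ 6 runs with 21 genes. The longest LJ run spanned Os09g0404300 to Os09g0406500 on chromosome 9, where 9 of 10 listed genes were LJ-only. All 9 were at 0 in every QJ control library and averaged 2.36 to 15.3 FPKM in LJ controls. In stressed LJ leaves all 9 were listed at 0.

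The second LJ run, Os10g0148100 to Os10g0150800 on chromosome 10, held 8 LJ-only genes of 12 listed. The highest named genes there were OSJNBa0031A07.14 (Os10g0150700), with 62.8, 61.2 and 65.6 FPKM in LJ, and OSJNBa0031A07.15 (Os10g0150800), with 78.4, 78.8 and 78.6 FPKM in LJ, both at 0 in all QJ control libraries. Their means in stressed LJ leaves were 2.76 and 3.09 FPKM. The lipid transfer gene OsLTPd11 stands just before this run and OSJNBa0031A07.12 (Os10g0150400), at 0, 0.17 and 0.09 FPKM in QJ and 92.6, 94.2 and 99.02 FPKM in LJ, inside it. Neighbouring copies of 1 family may share reads.

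Runs higher in QJ lay mostly on chromosomes 11 and 12. Os11g0690066 to Os11g0692400 held 5 QJ-only genes of 8 listed, among them the receptor-like cytoplasmic kinase OsRLCK353 (Os11g0691280), with 11.6, 11.7 and 10.2 FPKM in QJ controls, 0 in all LJ control libraries and a mean of 25.5 FPKM in stressed QJ leaves. Its neighbour Os11g0691400 averaged 48.99 FPKM there, while the first and the last gene of the run were listed at 0. OsWAK123 lies a short way beyond it. Os12g0117700 to Os12g0118400 held 3 of 5, and these averaged 114, 1.31 and 8.07 FPKM in stressed QJ leaves. This run stands near OsLTP1.18 by locus number, so the limit on shared reads given for that gene may apply here too.

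A further run on chromosome 12 behaved otherwise. All 4 listed genes from Os12g0548800 to Os12g0550800 were QJ-only, and qCTR12 (Os12g0550600), named for a trait locus, was the highest with 65.4, 68.1 and 68.3 FPKM in QJ and 0, 0.03 and 0 FPKM in LJ. In stressed QJ leaves all 4 were listed at 0. The QJ-only gene Os12g0553600, a little further along, averaged 16.8 FPKM in QJ controls and 12.04 FPKM in stressed QJ leaves. The WRKY factor OsWRKY61 (Os11g0685700), in a QJ run on chromosome 11, had 10.4, 9.27 and 11.9 FPKM in QJ controls and a mean of 0.103 FPKM in stressed QJ leaves.

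Chromosomes differed in both measures. On chromosome 12 only 48.7% of 345 tested genes were lower in QJ and 50.7% higher, and on chromosome 11 58.1% of 399 were lower, while the other chromosomes ranged from 63.5% to 75.2% lower. QJ-only genes made up 4.07% of listed genes on chromosome 11 and 4.13% on chromosome 12, against 1.66% over the table. LJ-only genes made up 7.99% on chromosome 10, against 4.32% over the table, and 1.96% on chromosome 12. Genes on 1 chromosome are not independent, so these shares carry no test. Reads may be shared between the duplicated ends of chromosomes 11 and 12, and the part of this in their shares was not tested.

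**Figure D4:**
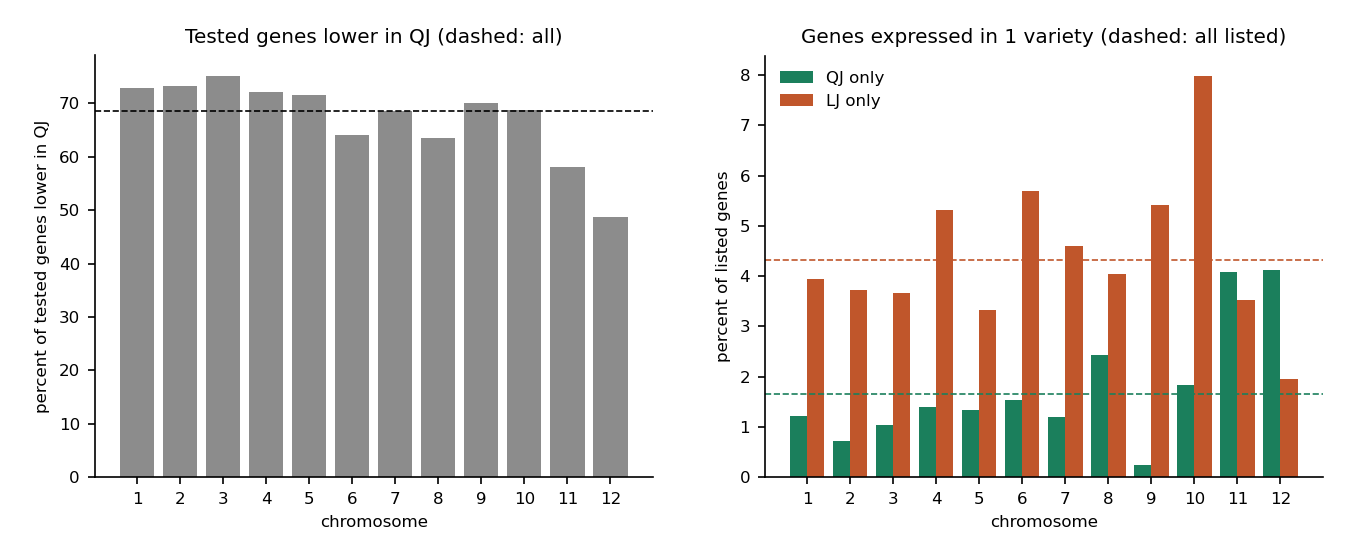
Left, percent of tested genes lower in QJ controls on each chromosome, read from the locus names, with 68.6% over all tested genes as a dashed line. Right, genes expressed in QJ only and in LJ only as percent of listed genes on each chromosome. Chromosomes 11 and 12 have the smallest shares lower in QJ and the largest shares of QJ-only genes.

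The control difference was then set beside that in stressed leaves, where QJ and LJ were compared in 6 other libraries. Among stressed libraries, 34.0% of 5662 tested genes were higher and 65.4% lower in QJ. Of the genes tested in controls, 49.6% were also tested there, 3029 genes, which are 53.5% of the stressed table's tested genes. Both tests called 3004 of them, 910 higher in QJ in both and 1963 lower in both, so 95.6% had the same direction. The opposite direction was found for 98 genes higher in QJ controls and lower in stressed QJ, and for 33 genes the other way. Each table holds only genes that passed the authors' selection in its own libraries, so the share covers genes different in both.

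**Figure D5:**
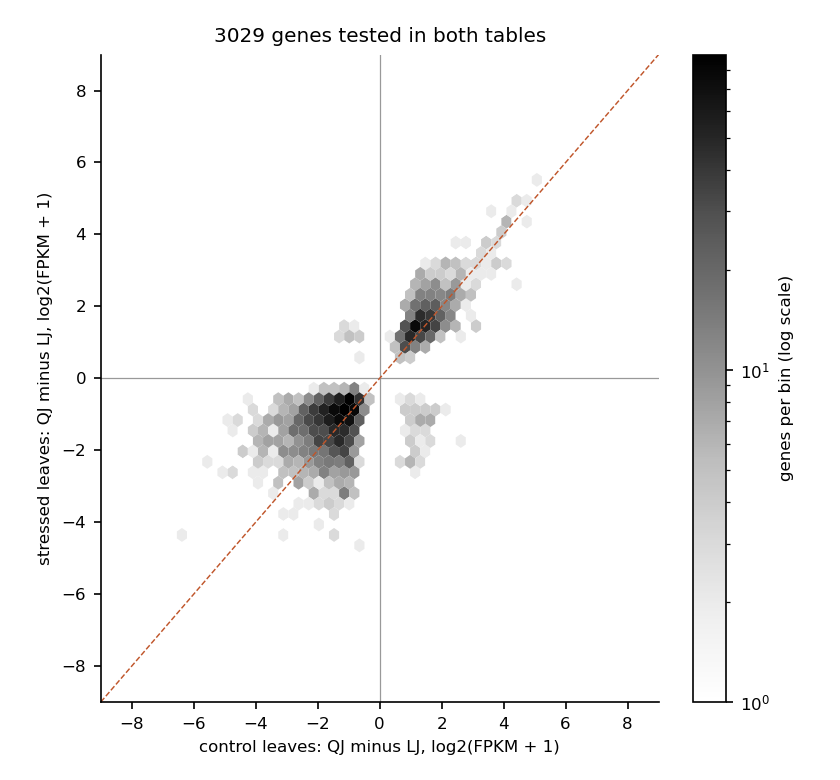
Difference between varieties in control leaves (horizontal) and in stressed leaves (vertical), QJ minus LJ on the log2(FPKM + 1) scale, for 3029 genes tested in both tables. Shade gives genes per bin on a log scale and the dashed line equal differences. Most genes lie in the quadrants of equal sign, 910 higher and 1963 lower in both.

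A limma interaction term over all 12 libraries tested whether the difference between varieties changed with stress. It passed for 3431 of 5170 genes with values in every library, 66.4%, and for 2527 of the 3710 that were also tested in controls. Among 2571 genes lower in QJ controls, 1443 had a smaller or reversed difference under stress and 451 a larger one. Among 1139 genes higher in QJ controls, the counts were 330 and 303. The control difference was part of how these genes were chosen and enters the term, so the balance of the counts is not read further.

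Levels of the anther, floral, secondary wall and meristem lists were then followed across all 4 groups. For the 10 anther genes with 12 values, the summed level was 278 to 287 FPKM in LJ controls and 16.7 to 17.8 FPKM in stressed LJ leaves, against 9.12 to 10.2 and 7.69 to 9.40 FPKM in QJ. For 10 floral identity genes the sum was 463 to 476 FPKM in LJ controls and 194 to 201 FPKM in stressed LJ leaves, with 48.1 to 54.9 and 60.0 to 63.1 FPKM in QJ. Secondary wall genes, 30 with 12 values, summed to 1904 to 2049 FPKM in LJ controls and 983 to 1088 FPKM in stressed LJ leaves, and QJ stayed between 348 and 374 FPKM in both conditions. The KNOX genes OSH15 and OSH1 averaged 14.4 ± 1.22 and 8.93 ± 0.863 FPKM in LJ controls and 4.07 ± 0.369 and 1.36 ± 0.0346 FPKM in stressed LJ leaves (mean ± SD, n = 3), with no overlap between conditions. The summed level of the 5 meristem markers with 12 values did overlap, at 23.97 to 29.15 FPKM in LJ controls and 10.3 to 29.6 FPKM in stressed LJ leaves. OsWOX2 (Os01g0840300), another member, averaged 1.77 FPKM in LJ controls and 10.4 FPKM in stressed LJ leaves.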

How the data were processed

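Leaf RNA of 2 rice varieties was sequenced in control and stressed plants, 3 libraries per group. The deposited tables hold FPKM per gene and library, which per the file headers sit beside the authors' fold ratio, log2 fold change, p-value and adjusted p-value. The sources used here do not name the aligner, genome build, counting method or the authors' test, and no read counts or sequences were used. The table compared here holds genes that the authors had selected as different. The median log2 ratio of the deposited FPKM exceeded the authors' deposited log2 fold change by 0.150, so the authors' scaling was not that of the FPKM. Values that stood in more than 1 table numbered 31572, and 0 differed.

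Variety was taken from the column headers, which match the sample titles. The tables that compare stress with control within a variety are named for the other variety than their headers, and the headers were followed. Nothing says that replicates came from separate plants, so p-values measure the spread between these libraries, which may be technical.

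Testing was limited to genes that reached 1 FPKM in 3 or more of the 6 control libraries, with limma 3.58.1 (R 4.3.3, trended prior) on log2(FPKM + 1), two-sided, with Benjamini-Hochberg adjustment over all tested genes and a threshold of 0.05. All adjusted p-values given are from limma. A term for the difference between varieties in stressed minus control leaves was fitted over the 12 libraries. The fit was checked on simulated data. Gene lists were made by gene name. Members and lists were chosen with earlier results of these data known.

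Genes are named by a rule: the 10 most raised and the 10 most lowered named genes in QJ with a mean of 5 FPKM or more on the higher side and groups that do not overlap, the 3 most abundant and the 2 most different members of each list, the 5 most abundant named genes expressed in either variety alone, the 5 largest terms in each direction over 12 libraries, and well-known loci. The genes MADS58, DL, OsMADS2, OsMADS13, OsMADS27, OsLAP6, CYP704B2, OsRAFTIN1, YY1, OsGEX2, OSH1, OSH15, OsWOX2, YAB1, OsCesA4, CESA7, BC6, BC1, OsIRX10, RBCS, RbcS1, PSBS2, HEMA1, OsELF3.2, HD3B, LHY, OsCOL4, HD5 and Pi-ta, and all unnamed loci, were added after their values were seen. Alternatives covered the pseudocount, the filter, scaling, the prior, a replicate block, leaving out each library and the limits for expression in 1 variety. Replicate numbers did not pair the libraries. Tables were made with Python 3.11.15 and pandas 2.3.3. A result on 1 gene is not reported here.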

Additional observations from a re-analysis of the deposited data

Results flagged for a closer look

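For 10 named genes the difference between varieties, QJ minus LJ on the log2(FPKM + 1) scale, changed most between control and stressed leaves. Each term below is the stressed difference minus the control difference, tested with limma over 12 libraries, and the largest adjusted p among the 10 was 8.5e-10. These are the extremes of 3431 passing terms, so their size is partly one of selection.

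In 5 genes a wide gap in controls was much smaller under stress on the log2(FPKM + 1) scale, with LJ far lower there. The tapetal lipid transfer gene OSC6 (Os11g0582500) averaged 153.9 FPKM in LJ controls and 0.597 FPKM in stressed LJ leaves, with 0.0367 and 0 FPKM in QJ, a term of 6.56. The peroxidases Pox1(Px (Os05g0499300) and prx39 (Os03g0234900) had terms of 5.45 and 4.91, with LJ means of 68.1 and 52.8 FPKM in controls and 0.58 and 0.723 FPKM under stress. The anther gene Osc4 (Os08g0546300) had a term of 5.33, with LJ means of 95.5 and 4.48 FPKM. The wall gene OsFLA9 (Os05g0163300) had a term of 4.60, with LJ means of 67.4 and 0.81 FPKM. In all 5, QJ was at most at 2.13 FPKM in any library, and LJ means under stress stayed above QJ means. Stressed means of Osc4 were 1.88 FPKM in QJ and 4.48 FPKM in LJ, and those of Pox1(Px 0.02 and 0.58 FPKM. The scale understates differences between values this low.

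In the other 5, LJ stood far above QJ under stress but not in controls. OsRMC (Os04g0659300), a receptor-like secreted protein, averaged 75.3 FPKM in QJ and 14.5 FPKM in LJ controls, and 317.7 and 5058 FPKM under stress, a term of -6.30. Sci1 (Os12g0437800), an inhibitor by its name, averaged 33.0 and 14.1 FPKM in controls and 65.0 and 1815 FPKM under stress, a term of -5.97. The chitinase Cht2* (Os05g0399300) averaged 4.25 and 1.26 FPKM in controls and 14.2 and 226.5 FPKM under stress, a term of -5.12. OsUCL35 (Os11g0428800) was at 0 in all 6 control libraries and averaged 0.757 FPKM in stressed QJ and 61.3 FPKM in stressed LJ leaves, a term of -5.15. OsCHX15 (Os12g0616500), of a cation exchanger family, averaged 0.82 and 0.62 FPKM in controls and 2.92 and 94.03 FPKM under stress, a term of -4.77. The last pair are not in the control table.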

How the results depend on the processing

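The number of passing genes was 6088, and it ranged from 6066 to 6080 with 1 library left out, with 1891 to 1896 higher and 4175 to 4186 lower in QJ. With at least 5 FPKM required in 3 libraries it was 3689, 1245 higher and 2444 lower, because 3691 genes were then tested. Genes expressed in LJ only numbered 351 to 397 and in QJ only 132 to 146 with 1 library left out. With all libraries they numbered 339 and 130. The rule asks for every library, so leaving 1 out can only keep or raise these counts. LJ-only genes numbered 626 with the low limit at 0.3 FPKM. With at least 5 FPKM in the expressing variety there were 91 in LJ and 64 in QJ. The replicate block gave 6092 passing genes, and the correlation of deviations of same-numbered libraries ran from -0.014 to 0.012, so the numbers share only a name. It changed no call of a named gene.

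Median centring left 1910 genes higher and 3520 lower, and quantile normalization 1943 and 3322. Over 266 named genes, 3707 of the alternative values kept direction and side of the threshold and 2 did not. Most of these genes were picked for large differences or high levels, and their largest limma adjusted p was 2.0e-04. Their stability was thus largely set by that choice. List medians kept their sign in 682 instances and changed it in 4. The iron and metal list was at 0.031 and the nitrogen list at 1.06 under the filter at 5 FPKM. The nitrogen list was at 0.048 after quantile normalization, and the pathogenesis-related list at -0.42 with no filter. The cause was not tested beyond the change in tested genes. The unknown depth limits statements on genes under about 1 FPKM, and a value listed at 0 does not show absence.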
